A study of Mus musculus with 12 samples.

Results

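The response of cells to BIGH3 was compared between an undifferentiated and a differentiated state, gene by gene, as an interaction: the log2 fold change with BIGH3 in differentiated cells minus that in undifferentiated cells. All 12 libraries of the series entered, 3 in each of 4 groups. BIGH3 is the secreted matrix protein encoded by TGFBI, and the recombinant human protein was added. The cells were labelled as MLO-Y4, genotype WT, a clonal mouse line with osteocyte-like features that came from transgenic mice carrying a viral large T antigen. All groups were grown on plates coated with collagen type I at 0.15 mg/mL. Control and BIGH3 treated cells made up a pair of groups in each state, and the differentiated groups had medium with 10% fetal bovine serum, ascorbic acid at 50 µg/mL and β-glycerophosphate at 4 mM. The labels give the undifferentiated groups no such medium, so state and medium cannot be told apart. Dose, exposure time and what the controls received are not given in the labels. The shared protocol text also names HCQ and antibodies to BIGH3, which no sample label lists.

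BIGH3 binds collagens and integrins, and it is made by many mesenchymal cells in answer to TGF-beta. Ascorbic acid lets cells make stable collagen, and β-glycerophosphate is a phosphate source, so together they drive matrix deposition and mineral formation in cultures of bone cells. Osteocytes are the cells embedded in bone matrix, joined by gap junctions of which Gja1 (connexin 43) is the main protein.

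Depth was 19014492 to 27612155 estimated reads per library. The deposited data carry the prefix MC3 in place of MLO-Y4, and which line was sequenced was not tested. Of the osteocyte markers, Dmp1, Phex and Pdpn were measured in every library, whereas Sost had 0 reads in 10 of 12 libraries and Fgf23 had 0 in all 12. Whether the 3 libraries of a group stem from independent cultures is not in the labels, and a p-value then reflects only how these libraries vary, which may be technical. Undifferentiated control 2, differentiated BIGH3 3, differentiated control 2 and undifferentiated BIGH3 1 carried reads of the liver gene Afp (1549, 482, 529 and 276 reads against 30 to 68 in the other 8). The liver genes Ttr (380, 217, 128 and 111 reads against 7 to 29) and Apoa1 (65, 14, 24 and 10 against 0 to 7) were also highest in these 4 libraries, given in the same order. Alb, which defines liver cells, had 0 to 9 reads per library. Results are therefore given below also without the first 3 or without all 4 of these libraries, and the part of these transcripts in other results was not tested.

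BIGH3 had a broad effect in differentiated cells and little measurable effect in undifferentiated cells, and the interaction was called for 4730 of 14711 genes (32.2%, edgeR quasi-likelihood test, adjusted p below 0.05). A gene was called higher when its response was more positive in differentiated cells, which held for 2378 genes (16.2%), and called lower in the opposite case, which held for 2352 (16%). Of the calls 50.3% were on the higher side, against 56.8% when counts were scaled by library totals, 49.2% with length offsets and 66.1% in limma fits on log2 TPM, which change the test, the scaling and the length correction together. At a size of at least 2-fold, 1267 genes were called (8.61%), 830 higher (5.64%) and 437 lower (2.97%). Without the 3 libraries with most Afp the interaction was called for 3480 genes, and without the 4 for 3326. Because bulk RNA was measured, fewer cells of a type and less RNA per cell cannot be told apart in any of these results.

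The parts of the interaction were unequal. BIGH3 changed 3 genes in undifferentiated cells (0.0204%, with 1 higher, 0.0068%, and 2 lower, 0.0136%; 599 passed an unadjusted p below 0.05 and DESeq2 called 8) and 6687 in differentiated cells (45.5%, with 22.6% higher and 22.9% lower). Differentiated and undifferentiated cells differed in 57.7% of genes in controls (29.1% higher, 28.6% lower) and in 56.6% with BIGH3 (28.9% higher, 27.7% lower). This difference is called the effect of the medium here, although state and medium cannot be told apart. The middle 50% of genes had log2 fold changes of -0.07 to 0.07 in undifferentiated and -0.23 to 0.28 in differentiated cells. Over the 4730 called genes the median absolute log2 fold change was 0.06 in undifferentiated and 0.50 in differentiated cells, and 85 of them (1.8%) had the larger change in undifferentiated cells. The median standard error was 0.09 in each state and 0.13 for the interaction. The fit shares 1 estimate of the spread over the 4 groups, so this likeness does not compare the spread within each state. The same difference taken in CPM had the opposite sign for 2 of the 4730 called genes (0.0423%), as a small change in undifferentiated cells leaves little room for the sign to turn.

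**Figure D1:**
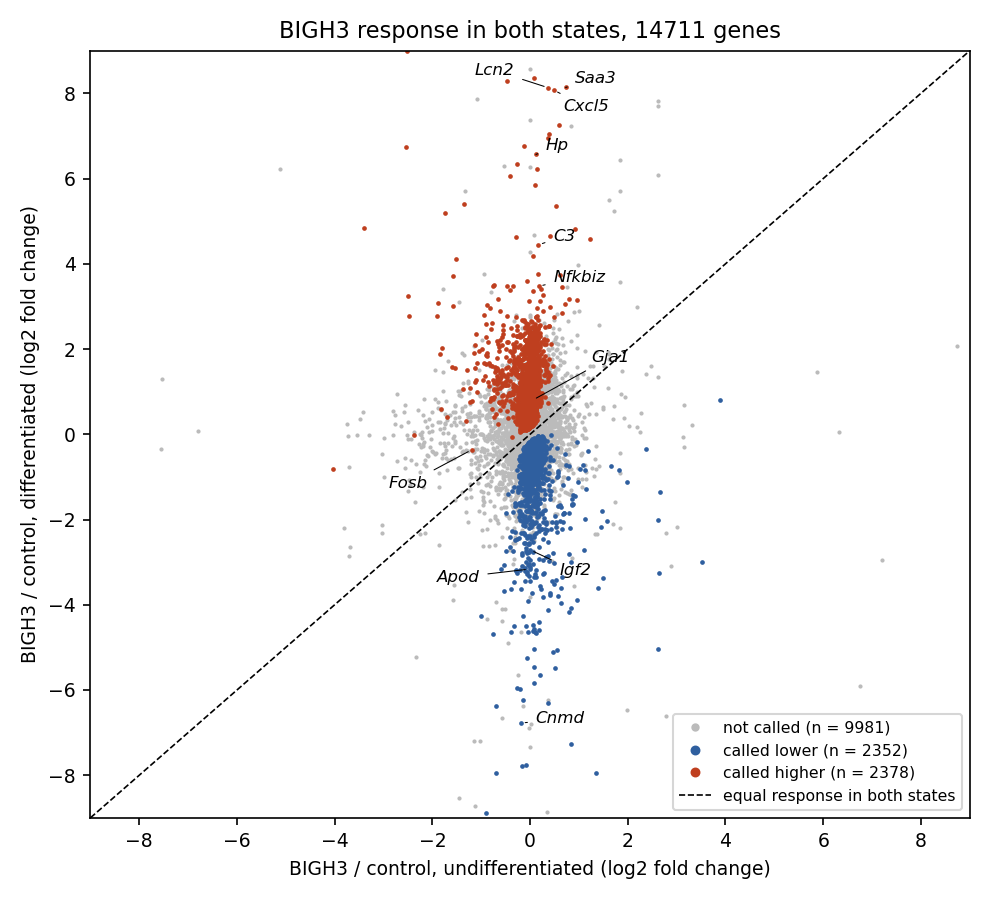
BIGH3 response of 14711 genes, with the log2 fold change in undifferentiated cells on the x axis and in differentiated cells on the y axis (9 uncalled genes lie outside the axes). Called genes (2378 higher in red, 2352 lower in blue) spread along the vertical axis, most with x values near 0, away from the dashed line of equal response.

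The 1267 genes of at least 2-fold fell into 6 patterns, set by the group means of log2 CPM with a margin of 1 and described without a test. Of the positive interactions, 275 genes (21.7%) stood above every other group in differentiated BIGH3 libraries. Another 366 (28.9%) were kept, meaning that they were lower by the margin in differentiated than in undifferentiated controls: the median log2 effect of the medium was -1.61 in control and 0.17 in BIGH3 treated cells. Of the negative interactions, 150 (11.8%) stood below every other group. A further 214 (16.9%) were held back, with a median log2 effect of the medium of 2.48 in control and 0.38 in BIGH3 treated cells. The remaining 189 positive and 73 negative genes met neither margin. The class used the same values as the call, so these counts describe which groups carried each interaction. With a margin of 2 the counts were 77 above, 88 kept, 51 below and 232 negative genes without a pattern.

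**Figure D2:**
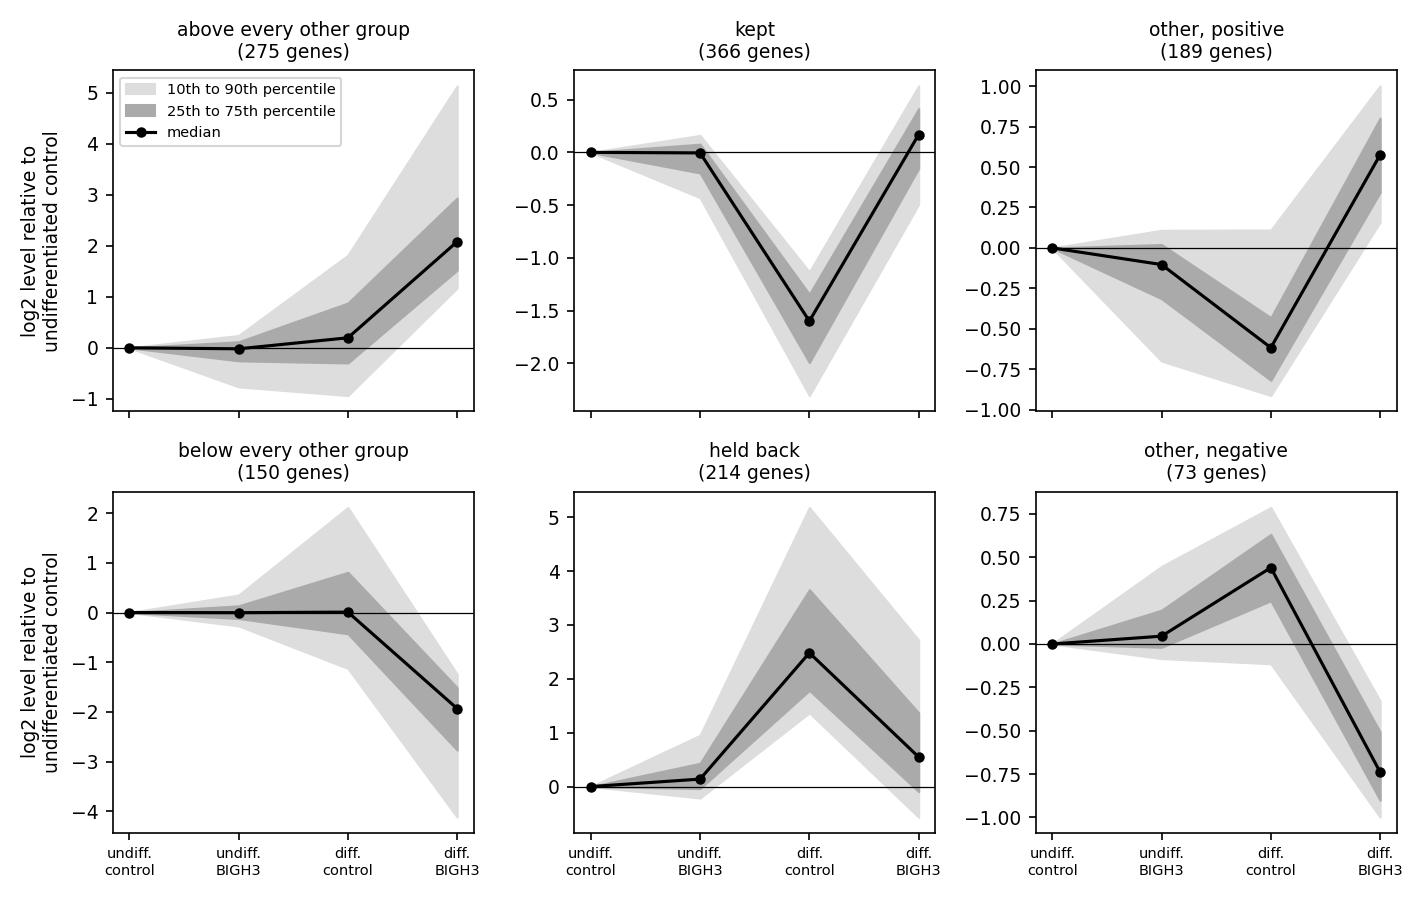
Levels of the 1267 genes by pattern, as log2 CPM relative to undifferentiated control (y axis) in the 4 groups (x axis), with the median and bands over genes. The kept genes dip to a median of -1.60 in differentiated control and return to 0.17 with BIGH3, and the held back genes rise to 2.48 and stand at 0.55 with BIGH3.

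Acute-phase genes, which encode plasma and defence proteins induced in inflammation, made up the most positive list. Of 22 listed genes 17 passed the filter on low counts, 12 were called higher and 1 lower, and the median interaction was 4.59 against 0.00 over all genes. Of the 11 higher by at least 2-fold, 11 stood above every other group. The summed level of the list was 883 to 932 CPM in undifferentiated control, 951 to 968 in undifferentiated BIGH3, 1520 to 1596 in differentiated control and 11060 to 11950 CPM in differentiated BIGH3 libraries.

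Promoter stretches of C3 and Serpina3f were chosen for printing because they hold matches. In windows from 250 bases before to 50 after a RefSeq start (GRCm38.p6), the C/EBP letters TTNCNNAA, searched on both strands, were found in 17 of 18 windows of the 16 list genes with an entry (94.4%), against 40.7% of all 32851 windows. The NF-kB consensus was found in 4 of these 18 (22.2%), against 8.46% of all windows. Capitals mark TTNCNNAA on either strand, and each stretch ends at the start. The first is chr17:57228137-57228256 on the minus strand and the second chr12:104214424-104214543 on the plus strand.
C3: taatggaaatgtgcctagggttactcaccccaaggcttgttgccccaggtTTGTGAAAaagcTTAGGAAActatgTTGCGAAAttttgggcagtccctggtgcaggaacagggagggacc
Serpina3f: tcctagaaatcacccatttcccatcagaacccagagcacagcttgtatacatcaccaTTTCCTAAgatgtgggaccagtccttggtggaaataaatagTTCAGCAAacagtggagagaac
The C3 stretch holds 3 matches and the Serpina3f stretch 2, and a match describes letters, not binding. Motif counts here and below took in every listed gene with an entry, called or not. They describe the lists and are no test of the response.

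C3, the central component of complement (ENSMUSG00000024164.15, GRCm38 chromosome 17, 57203970 to 57228136), stood at 336, 336 and 367 CPM in undifferentiated controls and at 396, 378 and 395 CPM with BIGH3. In differentiated controls it stood at 238, 230.1 and 236 CPM, and with BIGH3 at 5027, 5344 and 4963 CPM. Every differentiated BIGH3 library thus lay far above the other 9, while the medium alone was followed by lower levels. The interaction was 4.27 ± 0.07 on the log2 scale (SE, edgeR adjusted p = 2.39e-20), and Serpina3f, a serine protease inhibitor of the same list, reached 6.10 ± 0.23.

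Lcn2, which encodes the siderophore-binding lipocalin 2 (ENSMUSG00000026822.14, GRCm38 chromosome 2, 32384633 to 32388252), had 1.78, 1.14 and 1.01 CPM in undifferentiated controls, 1.30, 1.64 and 2.03 with BIGH3 and 1.45, 0.660 and 1.24 CPM in differentiated controls. These 9 libraries overlapped between groups. In differentiated BIGH3 libraries Lcn2 was at 361, 334 and 260.3 CPM, an interaction of 7.76 ± 0.60 (adjusted p = 8.33e-06, edgeR). Saa3, an acute-phase serum amyloid (ENSMUSG00000040026.8, GRCm38 chromosome 7, 46711998 to 46715700), stood at 2.35, 1.27 and 1.60 CPM and 3.20, 2.90 and 2.40 CPM in undifferentiated cells, first without and then with BIGH3. It had 8.64, 3.73 and 4.90 CPM in differentiated controls and 1777, 1728 and 1429 CPM with BIGH3 (interaction 7.41 ± 0.60, edgeR adjusted p = 2.25e-05). Haptoglobin (Hp, 6.45 ± 0.22), which binds free haemoglobin, and the copper-carrying ferroxidase Cp (1.61 ± 0.07) were also highest in differentiated BIGH3 libraries. Of 20 complement genes 12 passed the filter, 8 were called higher and 0 lower, among them C4b (1.81 ± 0.11), of the classical pathway.

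Genes of NF-kB signalling, the pathway that many inflammatory receptors share, were also called mostly higher. Of 26 listed genes 24 were tested, 18 were called higher and 0 lower (1 without undifferentiated control 3), and the median interaction was 0.86. The inhibitors that NF-kB itself induces were among them. Nfkbiz, an inducible NF-kB cofactor (ENSMUSG00000035356.17, GRCm38 chromosome 16, 55811375 to 55838899), stood at 15.8, 17.0 and 15.4 CPM and 16.0, 18.9 and 19.6 CPM in undifferentiated cells, first without and then with BIGH3. In differentiated cells it stood at 6.41, 6.88 and 9.15 CPM in controls and 83.9, 83.9 and 81.5 CPM with BIGH3 (interaction 3.30 ± 0.14, edgeR adjusted p = 6.07e-13). Tnfaip3, a ubiquitin-editing inhibitor of the pathway, had an interaction of 2.08 ± 0.15, the RNase gene Zc3h12a one of 2.27 ± 0.10, and Birc3, an inhibitor of cell death downstream of TNF receptors, one of 1.43 ± 0.14.

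The NF-kB consensus, searched on both strands, lay in 12 of 31 windows of 22 genes of this list (38.7%) and in 6 of 13 windows of 13 chemokine genes (46.2%), against 8.46% of all windows. Called and uncalled genes were counted alike, so these shares describe the lists. Tnip1, a ubiquitin-binding partner of Tnfaip3, was chosen for printing because its window holds the consensus, at chr11:54962941-54963060 on the minus strand, with the overlapping matches in capitals. Zc3h12a, Cxcl12 and Cx3cl1 had 0 matches upstream of the start.
Tnip1: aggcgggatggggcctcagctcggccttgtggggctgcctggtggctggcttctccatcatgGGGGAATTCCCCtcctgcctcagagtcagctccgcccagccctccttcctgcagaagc
Tnip1 stood at 45.8 ± 2.1, 45.2 ± 3.0, 89.6 ± 4.5 and 194 ± 4.2 CPM (SD, n = 3) in control and BIGH3 libraries of undifferentiated and then of differentiated cells. It thus rose with the medium and further with BIGH3 (interaction 1.13 ± 0.08).

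Of 20 chemokine genes 14 passed the filter, 10 were called higher and 1 lower. Ccl2, which attracts monocytes (ENSMUSG00000035385.5, GRCm38 chromosome 11, 82035571 to 82037453), stood at 106, 101 and 93.2 CPM and 101, 109 and 116 CPM in undifferentiated cells without and with BIGH3. It stood at 84.3, 85.2 and 89.2 CPM in differentiated controls and 622, 619.7 and 496 CPM with BIGH3, and the last group lay far above the other 3 (interaction 2.63 ± 0.11). Cxcl5, a neutrophil chemokine, had an interaction of 7.59 ± 0.35, and the medium moved it the other way in controls (log2 -2.48 ± 0.33). Cxcl12, which retains blood progenitors in bone marrow, had one of 1.23 ± 0.06 and Cx3cl1 one of 1.06 ± 0.08. The exception was Ccl11, an eosinophil chemokine, with 55.8 ± 2.5 CPM (SD, n = 3) in differentiated controls and 10.4, 11.7 and 10.1 CPM with BIGH3, near its undifferentiated levels of 9.24, 9.11 and 9.95 CPM (interaction -2.38 ± 0.12).

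Cytokines and their receptors were called higher in 14 and lower in 4 of 24 tested genes, of 30 listed, against 16.2% and 16% of all genes. Il6, the main inducer of the acute phase, stood at 2.95, 3.31 and 2.30 CPM in undifferentiated controls, 2.43, 2.53 and 2.65 with BIGH3, 1.94, 2.08 and 2.15 in differentiated controls and 15.6, 13.3 and 10.6 CPM in differentiated BIGH3 libraries (interaction 2.84 ± 0.25). Receptors of the same cytokine family moved as well, with Lifr at 2.05 ± 0.07, Osmr at 1.85 ± 0.09 and the ligand gene Lif at 1.93 ± 0.18. Genes that sense bacterial products were called higher in 10 and lower in 0 of 17 tested, of 21 listed. Tlr2, a receptor for lipoproteins, stood at 60.3, 61.6 and 59.4 CPM in differentiated controls and 209, 209 and 212 CPM with BIGH3, against 71.8, 69.5 and 72.6 CPM and 68.3, 68.8 and 70.7 CPM in undifferentiated cells (interaction 1.84 ± 0.06). Tlr4, the endotoxin receptor, had an interaction of 1.07 ± 0.09 and its co-receptor Cd14 one of 1.81 ± 0.18. Without the 3, and also without the 4, libraries with most Afp the count of this list was 7.

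Markers of blood cells were measured beside these lists. Of 15 macrophage and osteoclast markers 6 passed the filter, and their summed level over all 15 was 36.1 to 38.5 CPM, 35.3 to 37.4, 89.3 to 92.7 and 74.7 to 87.0 CPM in control and BIGH3 libraries of undifferentiated and then of differentiated cells. Tyrobp had 0 reads in every library, Csf1r 0 to 4 and Adgre1 0 to 6. Of the 6 tested, Cd14, given above, was called higher and Ctsk, the main collagenase of osteoclasts, lower. Ctsk stood at 33.6, 34.0 and 35.3 CPM in differentiated controls and 17.1, 17.9 and 16.7 CPM with BIGH3 (interaction -0.77 ± 0.15). Lyz2, lysozyme, stood at 48.9, 47.8 and 46.6 CPM and 40.1, 42.4 and 35.4 CPM there and was not called. The summed level thus held moves in both directions, and its part in the results above was not tested. Of 36 interferon-stimulated genes, all tested, 7 were called higher and 8 lower, near the 16.2% and 16% of all genes. Their median was 0.07. Gbp5, an inflammasome-related GTPase, was highest among the 4 with the smallest p (2.16 ± 0.18), and Ifi35 was lower (-0.61 ± 0.10).

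**Figure D3:**
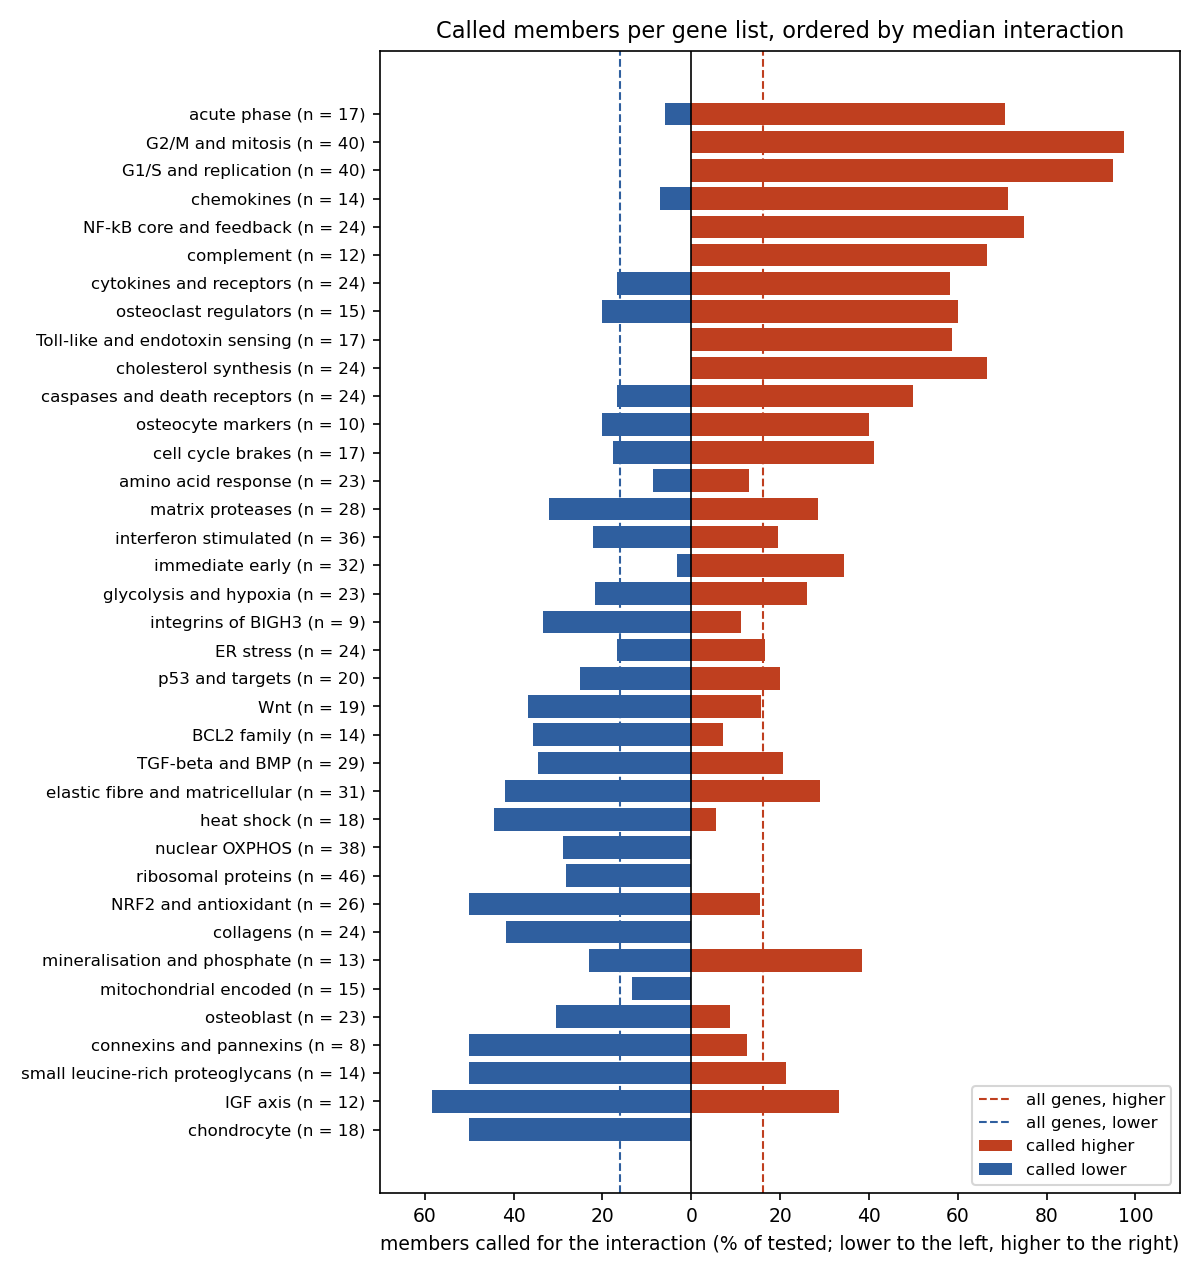
Share of tested members called for the interaction in each gene list of at least 8 tested genes (x axis, % of tested, lower to the left and higher to the right), ordered by the median interaction. The dashed lines mark 16.2% and 16% of all genes, and the acute-phase, G2/M, G1/S, chemokine and NF-kB lists extend farthest to the right.

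Genes of cell division carried the kept pattern. Of 40 G2/M and mitosis genes, all tested, 39 were called higher and 0 lower, the median interaction was 2.06, and of the 39 of at least 2-fold 37 were kept. The median effect of the medium on this list was -1.87 in controls and 0.18 with BIGH3. Their summed level was 2006 to 2139 CPM in undifferentiated control and 2028 to 2296 in undifferentiated BIGH3 libraries. It was 635 to 649 CPM in differentiated control and 2311 to 2603 CPM in differentiated BIGH3 libraries, so that only the differentiated controls stood apart downwards. Of 40 G1/S and replication genes, all tested, 38 were called higher and 0 lower, with a median of 1.21, and of the 23 of at least 2-fold 18 were kept.

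Promoter stretches of 3 of these genes were chosen for printing because they hold matches. Of the other genes searched, Mcm2 and Mcm3 had 0 E2F matches upstream of the start, and Hmmr, Cenpf and Cenpe had 0 matches of TTTGAA there. CCAAT, on either strand, was present in 27 of 36 windows of 33 G2/M genes (75%) and in 63.9% of G1/S windows, against 37.4% of all windows. TTTGAA, the letters of the cell cycle homology region, was present in 28 of the 36 G2/M windows (77.8%), in 16.7% of the G1/S windows and in 17.9% of all windows. The E2F letters TTTCGCGC, TTTGGCGC, TTTCCCGC or TTTGGCGG were present in 15 of 36 windows of 32 G1/S genes (41.7%), in 2.78% of G2/M windows and in 2.37% of all windows. Capitals mark CCAAT or its reverse complement in Hmmr (chr11:40733447-40733566, minus strand) and Top2a (chr11:99024219-99024338, minus strand), and E2F letters in Mcm5 (chr8:75109310-75109429, plus strand).
Hmmr: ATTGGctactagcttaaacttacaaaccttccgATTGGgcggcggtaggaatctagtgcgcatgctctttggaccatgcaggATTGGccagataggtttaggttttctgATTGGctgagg
Top2a: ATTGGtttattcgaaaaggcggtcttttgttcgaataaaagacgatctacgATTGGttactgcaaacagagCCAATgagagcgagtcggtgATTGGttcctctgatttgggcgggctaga
Mcm5: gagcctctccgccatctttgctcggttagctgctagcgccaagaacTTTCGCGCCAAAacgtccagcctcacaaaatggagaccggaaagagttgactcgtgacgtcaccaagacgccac
Hmmr and Top2a hold 4 CCAAT matches each in these stretches, and in Mcm5 2 E2F matches overlap.

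Hmmr, which encodes a spindle protein that also binds hyaluronan (ENSMUSG00000020330.16, GRCm38 chromosome 11, 40701395 to 40733422), stood at 66.1, 63.0 and 60.8 CPM in undifferentiated controls and 67.2, 68.1 and 63.7 CPM with BIGH3. It stood at 14.5, 15.6 and 13.9 CPM in differentiated controls and 72.1, 72.6 and 72.9 CPM in differentiated BIGH3 libraries. The last group thus lay just above the undifferentiated levels and 1 group, the differentiated control, lay far below (interaction 2.24 ± 0.08, edgeR adjusted p = 4.50e-14). The medium had a log2 effect of -2.11 ± 0.06 in controls and of 0.13 ± 0.05 in BIGH3 treated cells, of which the second was not called. Top2a, the topoisomerase of dividing cells (ENSMUSG00000020914.17, GRCm38 chromosome 11, 98992943 to 99024189), stood at 219.9, 209 and 212 CPM, 229, 229 and 206, 87.0, 79.6 and 85.6 and 352, 358 and 308 CPM in the same order of groups, so that it exceeded the undifferentiated level with BIGH3 and medium together (interaction 1.96 ± 0.08). The kinetochore genes Cenpf and Cenpe had interactions of 2.35 ± 0.09 and 1.97 ± 0.08, the phosphatase gene Cdc25c, which opens mitosis, one of 2.69 ± 0.26, and Ankle1, an endonuclease gene, one of 2.80 ± 0.26.

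Mcm5, a subunit of the replicative helicase (ENSMUSG00000005410.6, GRCm38 chromosome 8, 75109569 to 75128439), stood at 23.0, 21.7 and 22.4 CPM and 25.8, 24.1 and 22.3 CPM in undifferentiated cells without and with BIGH3. In differentiated cells it stood at 7.65, 8.86 and 8.10 CPM in controls and 36.8, 35.2 and 37.2 CPM with BIGH3 (interaction 2.05 ± 0.11, edgeR adjusted p = 8.96e-12). The other helicase genes Mcm2 (1.51 ± 0.09), Mcm3 (1.58 ± 0.08) and Mcm4 (1.35 ± 0.09) had the same order. Of 20 genes that restrain the cycle 17 were tested. This list was mixed, with 7 called higher and 3 lower, against 16.2% and 16% of all genes. Gadd45a was higher (0.90 ± 0.09) and Gadd45g lower (-0.92 ± 0.13), and the CDK inhibitor gene Cdkn2c was lower (-0.52 ± 0.08).

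Of 25 cholesterol synthesis genes 24 were tested, 16 were called higher and 0 lower, with a median interaction of 0.48. Their summed level was 1680 to 1691 CPM in undifferentiated control, 1674 to 1747 in undifferentiated BIGH3, 838 to 858 in differentiated control and 1224 to 1272 CPM in differentiated BIGH3 libraries, so that BIGH3 treated cells kept a part of the undifferentiated level. Msmo1, a sterol oxidase gene, stood at 51.8, 56.8 and 57.3 CPM in differentiated controls and 102, 103 and 106 CPM with BIGH3, and at 126, 129.7 and 116 CPM in undifferentiated controls (interaction 0.89 ± 0.08). Sqle, the squalene epoxidase gene, had 0.69 ± 0.07. Among 23 tested glycolysis and hypoxia genes 6 were called higher and 5 lower, with a median of 0.04, against 16.2% and 16% of all genes. Car9, a carbonic anhydrase, was the 1 member of at least 2-fold, with 0.248, 0.566 and 0.320 CPM in differentiated controls and 8.39, 10.2 and 9.40 CPM with BIGH3 (interaction 4.91 ± 0.34). It had the kept pattern: its mean TPM was 3.89 and 2.98 in undifferentiated control and BIGH3 libraries, and 0.24 and 6.09 in the differentiated ones. Vegfa followed (0.96 ± 0.08).

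**Figure D4:**
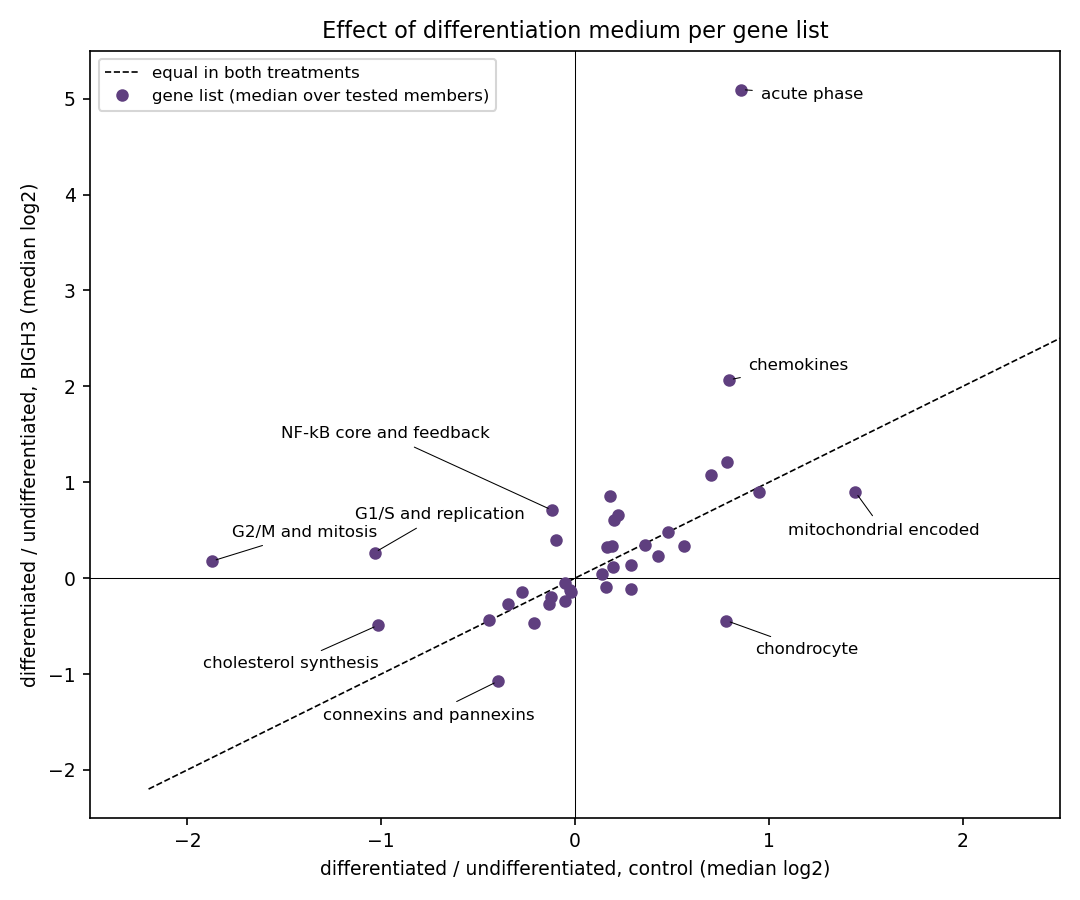
Median log2 effect of the differentiation medium per gene list in control cells (x axis) and in BIGH3 treated cells (y axis). The G2/M list lies at -1.87 and 0.18, the acute-phase list at 0.86 and 5.09 and the chondrocyte list at 0.78 and -0.44, all away from the dashed line of equal effect.

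The held back pattern included growth factor, matrix and bone genes that the medium raised in controls. Igf2, insulin-like growth factor 2 (ENSMUSG00000048583.16, GRCm38 chromosome 7, 142650766 to 142666816), stood at 113, 109 and 110.3 CPM in undifferentiated controls and 106, 115 and 112 CPM with BIGH3. It stood at 1022, 1079 and 1142 CPM in differentiated controls and 167, 173 and 155 CPM with BIGH3, so the rise of 3.29 ± 0.06 on the log2 scale in controls was 0.58 ± 0.05 in BIGH3 treated cells (interaction -2.71 ± 0.08, edgeR adjusted p = 5.36e-16). H19, the imprinted noncoding RNA next to Igf2, had another pattern: 101, 112 and 137 CPM, 121, 108 and 118 CPM and 122, 118 and 109 CPM in the first 3 groups, which overlapped, and 22.7, 18.2 and 17.0 CPM in differentiated BIGH3 libraries (interaction -2.57 ± 0.18). Of 14 genes of the IGF axis 12 were tested, 4 were called higher and 7 lower, among them the adaptor gene Irs1 of the insulin and IGF receptors (-0.73 ± 0.08) and, higher, Igfbp7 (0.79 ± 0.09).

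Apod, a lipid-binding apolipoprotein (ENSMUSG00000022548.14, GRCm38 chromosome 16, 31296192 to 31314808), stood at 652, 663 and 670.2 CPM, 611, 688 and 672, 3577, 3447 and 3782 and 400.1, 410.2 and 397 CPM in control and BIGH3 libraries of undifferentiated and then of differentiated cells (interaction -3.15 ± 0.07). With BIGH3 the medium was thus followed by a level below the undifferentiated one. Fmod, a small leucine-rich proteoglycan that binds collagen fibrils, stood at 18.7, 18.8 and 18.2 CPM, 19.4, 18.3 and 16.9, 233, 241 and 262 and 41.1, 44.7 and 37.5 CPM in the same order (interaction -2.54 ± 0.10), and kept a part of its rise. Gas6, a ligand of TAM receptor kinases (-2.53 ± 0.10), and Aff3, a nuclear protein of the transcription elongation machinery (-2.58 ± 0.08), were held back as well. Of 16 small leucine-rich proteoglycan genes 14 were tested, 3 were called higher and 7 lower, against 16.2% and 16% of all genes. Aspn (-2.34 ± 0.09) and Omd (-1.91 ± 0.11) were lower, and Dcn, decorin, was higher (1.57 ± 0.08). Tnfrsf11b, which encodes osteoprotegerin, the decoy receptor that blocks osteoclast formation, stood at 292, 294 and 310.1 CPM in differentiated controls and 103, 105 and 112 CPM with BIGH3, against 54.9, 54.9 and 57.3 CPM in undifferentiated controls (interaction -1.58 ± 0.08). Wif1, a secreted Wnt inhibitor, had -3.30 ± 0.31.

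Markers of muscle were measured beside these genes. Of 12 listed 9 were tested, and 0 were called higher and 5 lower. Their summed level over all 12 was 35.1 to 37.5 CPM, 31.8 to 37.7, 52.9 to 64.8 and 25.2 to 30.1 CPM in control and BIGH3 libraries of undifferentiated and then of differentiated cells. Tnnt3, a fast muscle troponin, had an interaction of -1.76 ± 0.18. Myod1, the master factor of muscle, was read 31 times in the differentiated controls together and in no other library. Myh2, a muscle myosin, had 0 or 1 read per library. Their part in the other held back genes was not tested.

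Of 25 cartilage genes 18 passed the filter, 0 were called higher, 9 lower and 9 neither, against 16.2% higher and 16% lower over all genes, and the median interaction was -0.62. Of the 8 of at least 2-fold, 5 stood below every other group and 3 were held back. Col2a1, the main cartilage collagen (ENSMUSG00000022483.17, GRCm38 chromosome 15, 97975602 to 98004695), stood at 108, 112 and 126 CPM in undifferentiated controls, 128, 100.5 and 109 with BIGH3, 51.8, 50.9 and 46.4 in differentiated controls and 5.70, 6.68 and 7.61 CPM in differentiated BIGH3 libraries. The medium was thus followed by a lower level in controls and by a still lower one with BIGH3 (interaction -2.87 ± 0.15, edgeR adjusted p = 5.06e-09). Cytl1, a cytokine-like protein of cartilage, rose with the medium in controls, from 11.0, 10.9 and 13.5 to 31.4, 34.6 and 32.7 CPM, and stood at 3.42, 4.12 and 3.25 CPM with BIGH3 (interaction -3.32 ± 0.15). Cnmd, chondromodulin, an inhibitor of vessel growth in cartilage, had 801 reads over the differentiated controls and 6 over the BIGH3 libraries (interaction -6.59 ± 0.41, and -7.56 without differentiated BIGH3 2, which held most of those reads).

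Among 24 collagen genes, all tested, 0 were called higher (1 without undifferentiated BIGH3 1 or undifferentiated control 1). Lower calls numbered 10, and 6 without the 3 libraries with most Afp and 5 in TPM. Col6a3, of the microfibrillar collagen around cells, had an interaction of -1.11 ± 0.08 and Col15a1, a basement membrane collagen, one of -2.34 ± 0.28. Matricellular genes were mixed, with 9 called higher and 13 lower of 31 tested (35 listed), against 16.2% and 16% of all genes. Thbs2, thrombospondin 2, was higher (1.01 ± 0.06) and Ccn3 lower (-1.68 ± 0.07). Of 28 tested matrix proteases and inhibitors 8 were higher and 9 lower, with the gelatinase gene Mmp9 at 1.60 ± 0.13 and the inhibitor gene Timp3 at -0.86 ± 0.06. Of 8 epithelial markers 4 were tested, and 0 were called higher and 2 lower, with a median of 0.17. Krt14, an epithelial keratin, was lower (-2.43 ± 0.19), whereas the keratin genes Krt18 (2.52) and Krt8 (2.16) were not called. Ripor2 (-2.48 ± 0.21) was lower as well.

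Bone genes divided. Of 30 osteoblast genes 23 were tested, 2 were called higher and 7 lower, against 16.2% and 16% of all genes. Spp1, osteopontin, a matrix phosphoprotein (ENSMUSG00000029304.14, GRCm38 chromosome 5, 104435118 to 104441050), stood at 1764, 1769 and 1743 CPM in undifferentiated controls, 1831, 1966 and 1965 with BIGH3, 3119, 3200 and 3314 in differentiated controls and 11010, 10690 and 10100 CPM in differentiated BIGH3 libraries. It thus rose with the medium and rose further with BIGH3 (interaction 1.60 ± 0.06, edgeR adjusted p = 6.72e-14). Omd, osteomodulin, stood at 67.8, 69.7 and 65.0 CPM, 68.8, 80.2 and 78.7, 71.4, 78.0 and 87.4 and 21.6, 24.8 and 24.4 CPM in the same order, lowest in the last group (interaction -1.91 ± 0.11), and Kazald1 (-1.94 ± 0.11) and the growth factor gene Bmp4 (-0.83 ± 0.07) were lower as well. Among 10 tested osteocyte markers, of 17 listed, 4 were called higher and 2 lower, against 16.2% and 16% of all genes. The list is small, and its share called lower lay near that of all genes.

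Phex and Dmp1, both regulators of phosphate and mineral, moved in opposite directions. Phex, an endopeptidase of osteocytes (ENSMUSG00000057457.11, GRCm38 chromosome X, 157162075 to 157415312), stood at 9.19, 8.05 and 7.57 CPM and 7.41, 8.61 and 7.21 CPM in undifferentiated cells without and with BIGH3, at 80.2, 87.3 and 83.7 CPM in differentiated controls and at 20.9, 25.2 and 25.6 CPM with BIGH3 (interaction -1.72 ± 0.13). Dmp1, an acidic matrix protein (ENSMUSG00000029307.7, GRCm38 chromosome 5, 104202613 to 104214102), stood at 51.9, 51.7 and 59.4 CPM, 61.9, 58.8 and 59.0, 37.1, 35.5 and 38.6 and 80.1, 81.8 and 95.2 CPM in the same order (interaction 1.07 ± 0.10). Phex thus kept part of its rise with the medium, whereas Dmp1 fell with the medium in controls and was highest with medium and BIGH3 together. Mgp, matrix Gla protein, an inhibitor of calcification, was higher (1.74 ± 0.08), and Fam20c, the kinase of secreted phosphoproteins, was higher too (0.93 ± 0.08). Of 15 tested osteoclast regulators, of 18 listed, 9 were called higher and 3 lower, against 16.2% and 16% of all genes. Among them was the prostaglandin synthase gene Ptgs2 (1.42 ± 0.08).

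**Figure D5:**
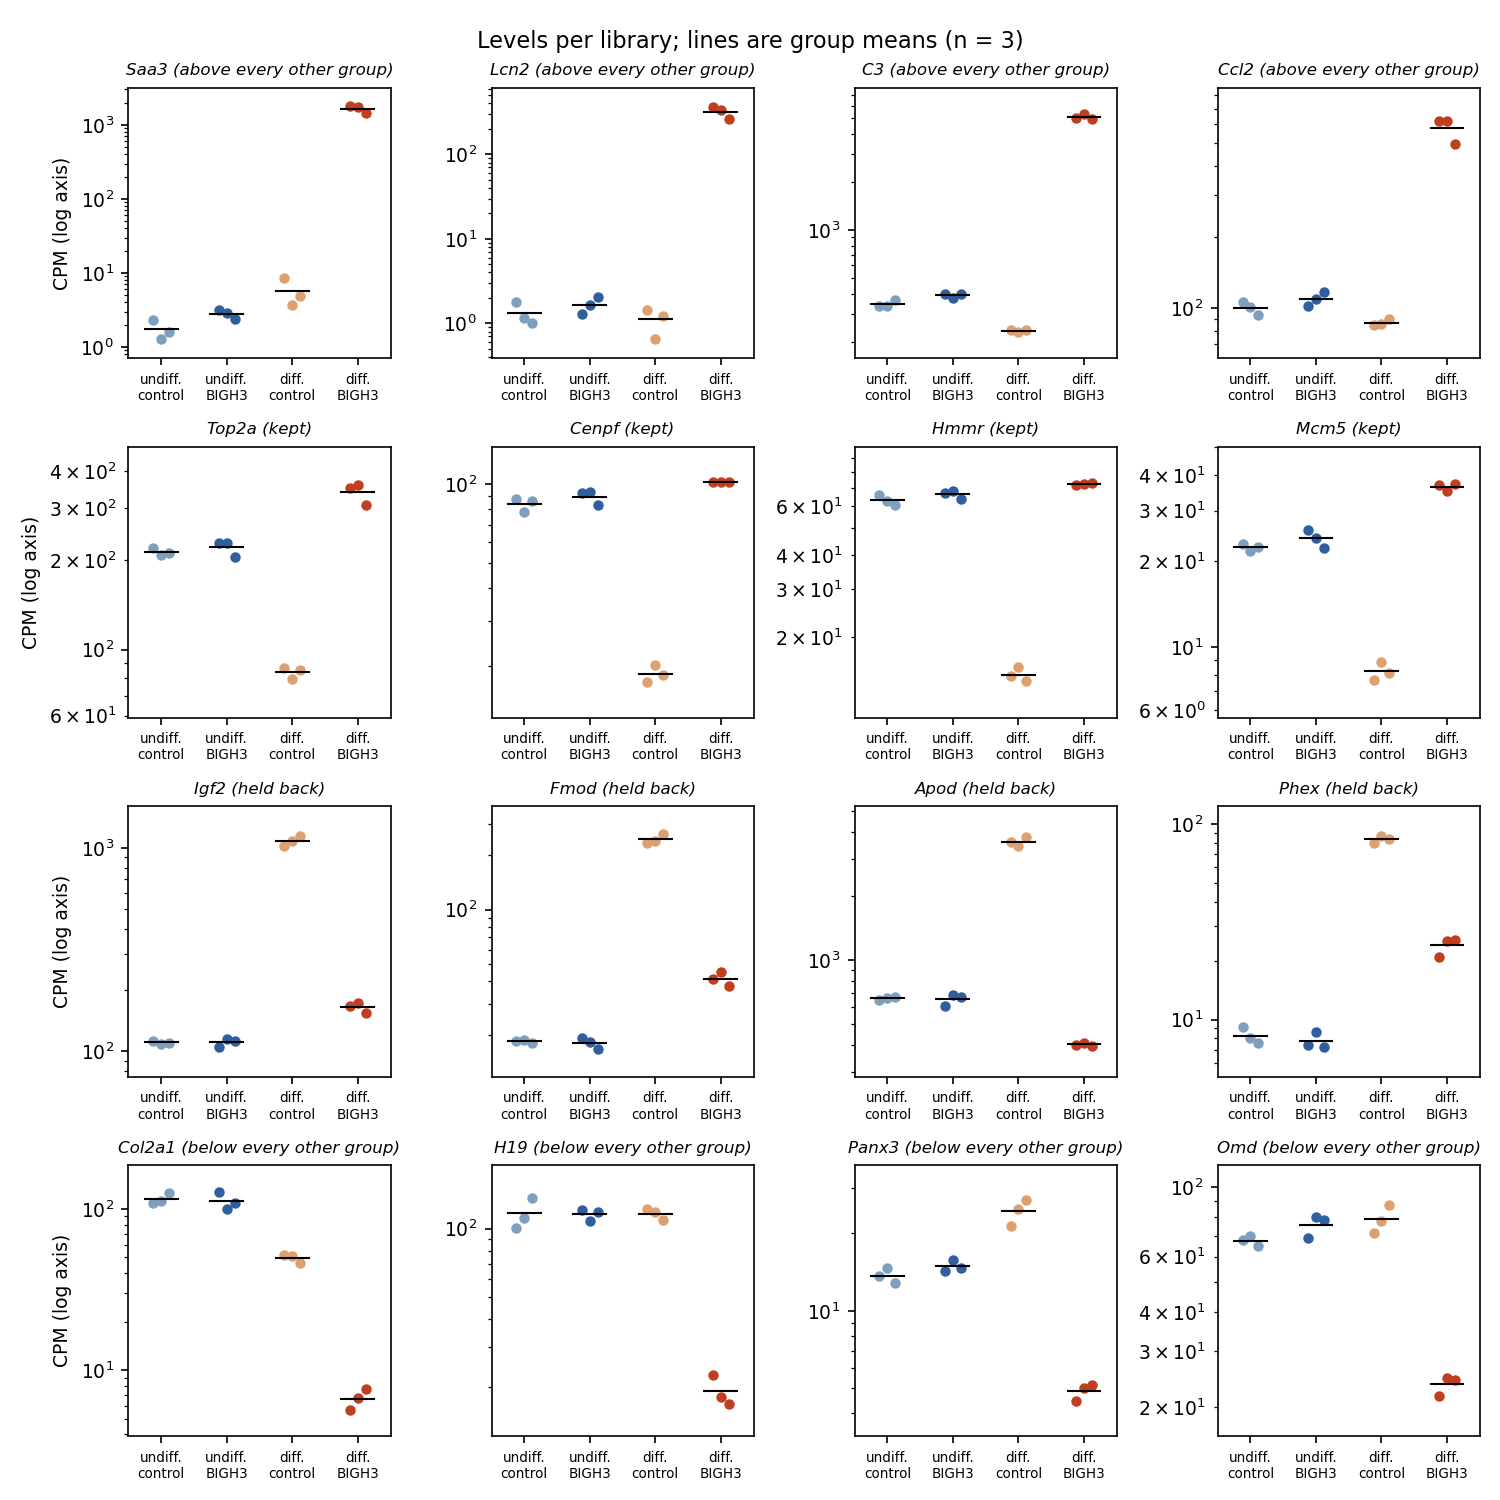
Levels of 16 genes in CPM (y axis, log scale) in the 4 groups (x axis), with a point for each library and a line for the group mean (n = 3), in rows by pattern. In the first row differentiated BIGH3 is highest, in the second differentiated control is lowest, in the third differentiated control is highest and in the last differentiated BIGH3 is lowest.

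Gja1, the gene named in the series' design (ENSMUSG00000050953.10, GRCm38 chromosome 10, 56377330 to 56402513), stood at 135, 132 and 134 CPM in undifferentiated controls and 130.0, 144 and 142 CPM with BIGH3, which overlapped. In differentiated cells it stood at 115, 122 and 118 CPM in controls and 204, 213 and 204 CPM with BIGH3, which did not. The interaction was 0.75 ± 0.07 (95% interval 0.61 to 0.89, a ratio of responses of 1.68, edgeR adjusted p = 2.89e-08) and lay between 0.70 and 0.78 when 1 library at a time was left out. The medium had a log2 effect of -0.17 ± 0.05 on Gja1 in controls and of 0.58 ± 0.05 in BIGH3 treated cells, both called and opposite in sign. Of 21 connexin and pannexin genes 8 were tested: Gja1 was called higher and 4 were called lower, against 16.2% and 16% of all genes. Among the lower were Panx3 (-2.44 ± 0.14) and Gjb5 (-1.81 ± 0.49). Gjb5 lost the call without the 4 libraries with most Afp (edgeR adjusted p = 0.0701). Panx3, a pannexin channel of bone and cartilage cells, stood at 13.6, 14.7 and 12.8 CPM, 14.3, 15.8 and 14.6, 21.4, 24.9 and 26.9 and 4.47, 5.03 and 5.15 CPM in the 4 groups. Panx3 thus rose with the medium in controls and had its lowest level in differentiated BIGH3 libraries. Gjc1 (0.14 ± 0.11, 95% interval -0.08 to 0.37) and Gjb1 (1.46 ± 2.21) were not called, and the interval of Gjb1 was wide (-3.48 to 6.39).

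Tgfbi, the cells' own gene for BIGH3 (ENSMUSG00000035493.10, GRCm38 chromosome 13, 56609523 to 56639562), followed the direction of Gja1. It stood at 36.3, 34.4 and 33.2 CPM and 35.9, 33.0 and 35.3 CPM in undifferentiated cells without and with BIGH3, and at 83.5, 83.3 and 84.6 CPM and 149, 148 and 134 CPM in differentiated cells. The interaction was 0.77 ± 0.08 (edgeR adjusted p = 1.09e-07), on top of a log2 effect of the medium of 1.28 ± 0.06 in controls. Of 11 listed subunits of integrins that bind BIGH3 9 were tested. Of these 1 was called higher and 3 lower, against 16.2% and 16% of all genes, and Itga6 (-0.65 ± 0.11) had the smallest p. The count of higher subunits was 2 without undifferentiated BIGH3 1, and 0 without undifferentiated BIGH3 2 or 3, undifferentiated control 1 or 3, differentiated BIGH3 1 or 2, or differentiated control 2 or 3. Itgb1, the shared beta subunit, was chosen after its values were seen and had an interaction of 0.01 ± 0.07 with a 95% interval of -0.13 to 0.15.

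Cell death genes were mixed. Of 24 tested caspase and death receptor genes, of 26 listed, 12 were called higher and 4 lower, against 16.2% and 16% of all genes. Fas, the death receptor, was the most positive (2.63 ± 0.11), and Tnfrsf9, a costimulatory receptor of the TNF family, had 2.65 ± 0.14. Bcl2, which blocks the mitochondrial pathway of death, stood at 8.56, 11.1 and 10.2 CPM in differentiated controls and 17.7, 19.1 and 18.3 CPM with BIGH3, against 12.9, 11.6 and 12.1 and 14.5, 14.4 and 13.0 CPM in undifferentiated cells (interaction 0.69 ± 0.14, edgeR adjusted p = 0.000633). Bax, its pore-forming opponent, stood at 101, 84.8 and 93.8 CPM and 99.0, 93.2 and 102 CPM in undifferentiated cells and 98.7, 95.9 and 89.5 CPM and 78.0, 86.3 and 86.6 CPM in differentiated cells. Its interaction was -0.26 ± 0.09 (edgeR adjusted p = 0.0283), and that call depended on single libraries and on the method. The edgeR call ended without undifferentiated BIGH3 1 (adjusted p = 0.0569) or 3 (0.0809), undifferentiated control 2 (0.0899), differentiated BIGH3 1 (0.0825) or differentiated control 1 (0.0740) or 2 (0.0533). The same happened on leaving out the 3 or the 4 libraries with most Afp (edgeR adjusted p = 0.0976 and 0.166) and when scaled by library totals (0.0803). It happened also in limma on log2(TPM + 1) and log2(TPM + 0.1) (adjusted p = 0.174 in each).

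The 3 genes that BIGH3 changed in undifferentiated cells differed in their interaction. Fosb, an AP-1 factor induced within minutes of stimulation (ENSMUSG00000003545.3, GRCm38 chromosome 7, 19302696 to 19310051), stood at 43.5, 41.9 and 36.5 CPM in undifferentiated controls and 22.5, 16.9 and 14.0 CPM with BIGH3. In differentiated cells it stood at 7.73, 7.12 and 8.79 CPM in controls and 5.79, 5.46 and 7.22 CPM with BIGH3, which overlapped. The interaction of 0.83 ± 0.24 (edgeR adjusted p = 0.0172) thus rested on the change in undifferentiated cells. Its call ended without differentiated BIGH3 3 (adjusted p = 0.0657), differentiated control 1 (0.0510) or 2 (0.0528), and without the 3 libraries with most Afp (0.176). It ended too with length offsets (edgeR adjusted p = 0.265) and in limma on log2(TPM + 1) (0.0653) and log2(TPM + 0.1) (0.176). Egr1, a zinc finger factor of the same class, had similar values in both states (-0.43 ± 0.06 and -0.39 ± 0.08), and its interaction was 0.04 ± 0.10 with a 95% interval of -0.18 to 0.25. The antisense transcript 3110045C21Rik had 6, 89, 68 and 104 reads over the control and BIGH3 libraries of undifferentiated and then of differentiated cells, with an interaction of -3.08 ± 0.80. That interaction was -7.04 without undifferentiated control 2, which held all 6 of the control reads, and -2.45 without undifferentiated control 3.

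The count of 3 also depended on single libraries. It was 0 without undifferentiated control 1, differentiated BIGH3 1 or any 1 of the differentiated controls, and 1 without undifferentiated control 2 or differentiated BIGH3 2. Of 32 immediate early genes, all tested, 11 were called higher for the interaction and 1 lower (2 without undifferentiated BIGH3 3, undifferentiated control 2 or 3, or differentiated BIGH3 1), among them the AP-1 gene Jun (1.40 ± 0.09) and the phosphatase gene Dusp1 (1.85 ± 0.14).

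For many genes the data bound the state dependence to small values. The 95% interval of the interaction lay within -0.5 and 0.5 for 6213 genes (42.2%) and within -1 and 1 for 9941 (67.6%). Of 46 ribosomal protein genes 37 lay within the narrower limits, of 38 nuclear genes of oxidative phosphorylation 27 did, of 24 ER stress genes 18 did, and of 36 interferon-stimulated genes 14 did. The ribosomal list had 0 genes called higher and 13 lower, with a median of -0.20. That count was 8 without undifferentiated BIGH3 3, 7 without undifferentiated control 2, 25 without differentiated BIGH3 1, 1 without the 4 libraries with most Afp and 1 in TPM. The oxidative phosphorylation list had 0 called higher (1 without undifferentiated BIGH3 1) and 11 lower (7 without those 4 libraries and 2 in TPM). Of the ER stress genes 4 were called higher and 4 lower, near the 16.2% and 16% of all genes. Ddit3, a death-promoting factor of that response, had an interaction of -0.73 ± 0.09.

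Ints9 had a large negative value whose call depended on single libraries and on the method. This gene, which encodes a subunit of the Integrator complex, stood at 24.0, 0.424 and 23.0 CPM in differentiated controls and 0.228, 0.374 and 0.224 CPM with BIGH3, so 1 control lay at the treated level. In undifferentiated cells it stood at 27.1, 25.8 and 22.2 CPM and 25.5, 27.8 and 26.0 CPM. The interaction of -5.92 ± 1.67 (edgeR adjusted p = 0.0274) lost its call without any 1 of 9 libraries (adjusted p 0.0510 to 0.0734), which were the 3 undifferentiated controls, undifferentiated BIGH3 3, the 3 differentiated BIGH3 libraries and differentiated controls 1 and 3.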

How the data were processed

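RNA was sequenced from 12 libraries, 3 in each of 4 groups. The authors deposited, per the file headers, an estimated count and a TPM value for every transcript of each library. FastQC, cutadapt, Salmon, StringTie and the build mm10 are named in the submitters' processing notes without versions. Estimated counts were summed per gene through GENCODE M21 (GRCm38), which matched 137063 of 147828 transcripts (92.7%). The sums were rounded and tested with edgeR 4.0.16 in R 4.3.3: TMM scaling, a filter by group on low counts that left 14711 of 51707 genes, a robust quasi-likelihood fit with 1 term per group, and Benjamini-Hochberg adjustment over all genes tested. Intervals are 95%, errors of log2 values are SE, and CPM values are scaled by TMM. The script was tested on simulated data. limma 3.58.1 on log2 TPM with pseudocounts of 1 and 0.1, and DESeq2 1.42.0, were alternatives.

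The members and gene lists were chosen with earlier results of these data known. Over all genes tested 16.2% were called higher and 16% lower, and the counts of every list are to be read beside these shares. Named genes were the 12 largest positive and 12 largest negative interactions at a mean log2 CPM of at least 2, the 10 most abundant called ones, every gene called in undifferentiated cells, Gja1, tested connexins and pannexins, Tgfbi, Bax and Bcl2, up to 4 members of each list with the smallest p, and cell type markers at or near 0; predicted gene models were left out of the first 3 sets. No 2 libraries of a group were alike within sampling noise. Some genes that this rule names are not reported here.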

Additional observations from a re-analysis of the deposited data

Results flagged for a closer look

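The response to BIGH3 differed between the states, by the test of the interaction itself, for 4730 genes. Gja1 was among them, with an interaction of 0.75 on the log2 scale (edgeR adjusted p = 2.89e-08), and with BIGH3 it was higher in all 3 differentiated libraries than in the 3 differentiated controls.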

How the results depend on the processing

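Leaving out 1 library at a time gave 4051 to 4693 genes called for the interaction, 2038 to 2331 higher, 1980 to 2362 lower, 1159 to 1235 of at least 2-fold, 0 to 3 in undifferentiated and 5896 to 6862 in differentiated cells, and 0.70 to 0.78 for Gja1. The count in undifferentiated cells was 8 with DESeq2, 21 without a low-count filter, 1 with length offsets, 1 with log2(TPM + 1), 0 with log2(TPM + 0.1), 1 without the robust option, and 1 or 5 without the 3 or 4 libraries with most Afp. Genes of at least 2-fold numbered 773 at a mean of 50 reads or more and 770 with log2(TPM + 1). Lower genes numbered 1135 and 1115 with the 2 TPM fits. A test against 2-fold called 467 genes. With a margin of 0.58 the genes without a pattern numbered 24 positive and 9 negative. With a margin of 2 the counts were 77 above, 88 kept, 665 positive without a pattern, 51 below and 232 negative without a pattern. Stab2 was called lower, at -0.91. It reversed to 0.18 with length offsets (edgeR adjusted p = 0.778), and to 0.16 with log2(TPM + 1) and 0.26 with log2(TPM + 0.1) (limma adjusted p = 0.723 and 0.691). The reversed values were thus not called. The causes of these changes were not tested.

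Of 175 named genes with a call, 145 kept it and their direction under every alternative run. Correlations of same-numbered libraries across groups ran from -0.20 to 0.32, and those of the others from -0.27 to 0.32. No pairing by replicate number stood out, and with 3 libraries a group this check cannot exclude one. With a replicate block 4669 genes were called, and the calls of Ints9, Trf and mt-Cytb ended (edgeR adjusted p = 0.0565, 0.0530 and 0.0704). With 3 libraries a group, the median standard error of 0.13 limits what could be called.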

Other observations

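Some listed genes had too few reads for the test, and those given here were chosen after their values were seen. Csf2 and Csf3, growth factors of granulocytes and macrophages, had 36 and 24 reads over the 3 differentiated BIGH3 libraries and 0 in the other 9. Mepe, a matrix protein of osteocytes, had 4 reads over undifferentiated control, 3 over undifferentiated BIGH3, 42 over differentiated control and 2 over differentiated BIGH3 libraries.

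Antioxidant genes under NRF2 were called higher in 4 and lower in 13 of 26 tested, against 16.2% and 16% of all genes. The share called higher thus lay near that of all genes. The count of lower genes was 7 and 6 with the 2 TPM fits. The count of higher genes was 2 without undifferentiated BIGH3 2, differentiated BIGH3 2, or differentiated control 2 or 3. Sod2, the mitochondrial superoxide dismutase, was higher (log2 interaction 1.46), and so was the ferritin gene Fth1 (1.02). The quinone reductase gene Nqo1 (-1.21) and the glutathione transferase gene Gsta4 (-1.24) were lower. Of 29 tested genes of TGF-beta and BMP signalling 6 were called higher and 10 lower, against 16.2% and 16% of all genes. Among them were the co-receptor gene Tgfbr3 (1.48) and the BMP target gene Id4 (-1.11).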
